A study of Mus musculus with 8 samples.

Results

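The Id (inhibitor of differentiation) genes were examined in 4 WT and 4 Cd36KO bulk RNA-seq libraries of mouse brown adipose tissue (BAT), the thermogenic fat depot. The rows of the count table that the annotation names Id1, Id2, Id3 and Id4 were taken, which are 4 of 31053 gene rows. All 4 Id genes were among the 9619 genes that received an adjusted p-value. Id2 was selected on its log2 fold change, the largest rise in Cd36KO among genes past the DESeq2 threshold of 0.05 with a mean of at least 50 normalized counts and no overlap between the groups, and its paralogues were then taken to ask whether they follow it. The values of Id2 are therefore a description and carry no test, whereas Id1, Id3 and Id4 were tested.

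The labels give both groups as C57BL6/J mice aged 8 weeks and differ only in genotype, WT or Cd36KO. CD36 is a scavenger receptor for lipids. The labels do not say which deletion was used. The study describes a germline deletion as well as a myeloid deletion made by crossing floxed Cd36 mice with Csf1r-Cre, and attributes its BAT transcriptome to the latter. Its legend for that transcriptome gives the labelled age and counts replicates as mice, whereas its methods give a later age at sacrifice for the myeloid deletion. The labels also give the cell type as Stromal Vascular Fraction, yet the adipocyte gene Ucp1 had 4235 to 12310 normalized counts and Adipoq 2458 to 6294 in the 8 libraries, so the label of a fraction without adipocytes does not match and the samples are called BAT here. The study's methods state male mice, but every library held 772 to 1588 Xist counts and at most 3 counts of 4 Y-linked genes. The count column of 1 Cd36KO library has no replicate number and is called the unnumbered Cd36KO library. The labels themselves do not tie the libraries to separate mice.

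Id proteins carry a helix-loop-helix domain for pairing but no basic region for binding DNA. They pair with the E proteins, the widely expressed basic helix-loop-helix (bHLH) factors encoded by Tcf3, Tcf4 and Tcf12, and keep them and their tissue-specific partners off DNA. Their transcription is a classical response to bone morphogenetic proteins (BMPs), whose receptors phosphorylate SMAD1, SMAD5 and SMAD9. Id2 is best known for its role in the development of innate lymphoid and natural killer cells, and it can also bind the retinoblastoma protein.

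Of the Id genes, Id2 and Id4 had promoter sequence outside annotated exons in the 250 bases before the RefSeq start (GRCm38.p6, 5′ to 3′ on the strand of the gene), shown because Id genes are classical BMP targets and these were the most and the least abundant Id transcripts in Cd36KO. Capitals mark GGCGCC, the palindromic core of a site bound by BMP-activated SMADs, and CCAAT, which reads ATTGG on the other strand. The Id2 stretch covers positions -250 to -162 at chr12:25096254-25096342 on the minus strand and is intronic in a longer Id2 transcript. The Id4 stretch covers positions -250 to -1 at chr13:48260866-48261115 on the plus strand.
Id2: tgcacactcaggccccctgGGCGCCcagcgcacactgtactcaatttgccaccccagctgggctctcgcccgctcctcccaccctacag
Id4: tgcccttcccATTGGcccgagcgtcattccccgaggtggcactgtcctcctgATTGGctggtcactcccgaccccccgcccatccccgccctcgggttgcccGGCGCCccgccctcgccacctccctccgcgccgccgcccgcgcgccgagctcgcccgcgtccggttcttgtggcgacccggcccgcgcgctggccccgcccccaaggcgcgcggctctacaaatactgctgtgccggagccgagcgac

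GGCGCC stood at position -231 of Id2 and at -148 of Id4. It was present on either strand in 9.59% of the 250-base windows of 32851 RefSeq promoters. CCAAT was found at -240 and -198 of Id4, and in 33.9% of all windows. The nearest 161 bases of Id2 and the whole window of Id3 lie in annotated exons and were left out, so the letters searched differ between the genes. Id1 had no entry in the promoter table. The matches describe these letters and not bound sites.

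In WT BAT, Id2 and Id1 were the most abundant Id transcripts, Id3 followed and Id4 was near the detection floor. The floor of 3 counts corresponded to 2.29 to 3.53 normalized counts. Per kilobase of annotated exon, the normalized count in WT was 127 ± 14.2 for Id1, 86.9 ± 13.6 for Id2, 65.0 ± 14.3 for Id3 and 3.46 ± 4.73 for Id4 (SD, n = 4). This order held in all 4 WT libraries. The order of the first 2 depended on the transcript length used. Undivided by length, Id2 counts exceeded Id1 counts in WT, with ratios of 1.01 to 1.62. Over the shortest consensus coding (CCDS) transcript, which is 934 bases for Id1 and 1270 for Id2, Id2 stood at 167 ± 26.1 and Id1 at 158 ± 17.6 per kilobase in WT, and their ranges overlapped. Id1 and Id3 remained in that order under both lengths, at 158 ± 17.6 and 91.0 ± 20.1 per kilobase of CCDS transcript, with ranges that did not overlap. In Cd36KO the order per kilobase of exon was Id2, Id1, Id3 and Id4 in each of the 4 libraries, with 237 ± 61.3, 99.3 ± 37.8, 43.6 ± 21.2 and 2.61 ± 1.46 (SD, n = 4). The ranges of Id1 and Id3 overlapped there on the scale of CCDS length, with 75.6 to 176 for Id1 and 24.4 to 95.5 for Id3.

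Cd36, the targeted gene, was lower in every library labelled Cd36KO but far from absent. Its normalized counts were 2796, 2958, 3505 and 2412 in WT replicates 1 to 4, and 1926, 2109, 2384 and 1930 in the unnumbered library and Cd36KO replicates 2 to 4. The groups did not overlap, with a log2 fold change of -0.48 ± 0.16 (SE). The difference missed the threshold in DESeq2 (adjusted p = 0.0602), and the exact two-sided permutation test gave p = 0.0286, the smallest that 4 against 4 libraries allow.

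Id2 (ENSMUSG00000020644, chr12:25093799-25097140, minus strand, GRCm38) was higher in Cd36KO. Its normalized counts were 205, 232, 168 and 242 in WT replicates 1 to 4. They were 701 in the unnumbered Cd36KO library and 450, 448 and 715 in Cd36KO replicates 2 to 4. Every Cd36KO value lay above every WT value, a pattern shared by 4.83% of the 9619 tested genes and fixed here by the choice of Id2. The means were 212 ± 33.1 and 578 ± 150 (SD, n = 4), which gave a log2 fold change of 1.45 ± 0.22 (SE), or 2.73-fold with a 95% interval of 2.03 to 3.66. The fold and its interval come from the values that selected Id2, so the interval cannot be read as a test. Just behind Id2 in that ranking, with the same limits, stood Lgr6, an R-spondin receptor, at 1.32, and Tmem79 at 1.23 on the log2 scale.

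Id1 showed no such rise. Id1 (ENSMUSG00000042745, chr2:152736251-152737410, plus strand, GRCm38) had normalized counts of 126, 146, 166 and 152 in WT replicates 1 to 4. In Cd36KO it had 86.9 in the unnumbered library and 139, 70.6 and 164 in replicates 2 to 4. The unnumbered library and replicate 3 lay below all WT libraries, whereas replicates 2 and 4 lay within the WT range. The means were 148 ± 16.4 and 115 ± 43.8 (SD, n = 4), with a log2 fold change of -0.35 ± 0.27 (SE). The difference passed neither DESeq2 (adjusted p = 0.573) nor the exact two-sided permutation test (p = 0.257). The 95% interval of the fold ran from 0.543 to 1.13.

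Id3 had a lower mean in Cd36KO, and this difference was also within the spread between libraries. Id3 (ENSMUSG00000007872, chr4:136143497-136145755, plus strand, GRCm38) had normalized counts of 108, 125, 85.9 and 146 in WT replicates 1 to 4. In Cd36KO it had 31.2 in the unnumbered library and 89.8, 69.6 and 122 in replicates 2 to 4. The unnumbered library stood lowest of all 8, and the groups overlapped. The means were 116 ± 25.6 and 78.1 ± 38.0 (SD, n = 4), with a log2 fold change of -0.57 ± 0.34 (SE), an adjusted p of 0.434 in DESeq2 and a two-sided p of 0.171 in the exact permutation test. The fold had a 95% interval of 0.424 to 1.07. Without the unnumbered library the log2 fold change was -0.31 (DESeq2 adjusted p = 0.878). Across all 9619 tested genes, 2.95% passed the threshold, 1.42% as higher and 1.53% as lower in Cd36KO, and of the 3 paralogues of Id2 none passed in DESeq2, whose unadjusted p-values were 0.192 for Id1, 0.0960 for Id3 and 0.586 for Id4. edgeR gave adjusted p-values of 0.494 for Id1 and 0.401 for Id3.

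The difference in Id4 could not be measured well, with few counts and WT replicate 1 far above the other WT libraries. Id4 (ENSMUSG00000021379, chr13:48261228-48266026, plus strand, GRCm38) had 45, 6, 3 and 4 raw counts in WT replicates 1 to 4. It had 6 in the unnumbered Cd36KO library and 16, 8 and 9 in replicates 2 to 4. WT replicate 1 thus held more than all other WT libraries together, and on the normalized scale the remaining 3 WT libraries, at 3.53 to 5.10, lay below every Cd36KO library, at 6.69 to 18.4. WT replicate 1 also had the highest sum of 8 skeletal muscle markers, at 14590 CPM (counts scaled to the library total), while WT replicates 2 to 4 had 146 to 2647, and the part of muscle in its Id4 count was not tested. The log2 fold change was -0.43 ± 0.78 (SE; DESeq2 adjusted p = 0.860; exact two-sided permutation p = 1.0), and it turned to 1.23 without WT replicate 1. The 95% interval of the fold ran from 0.257 to 2.16.

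**Figure D1:**
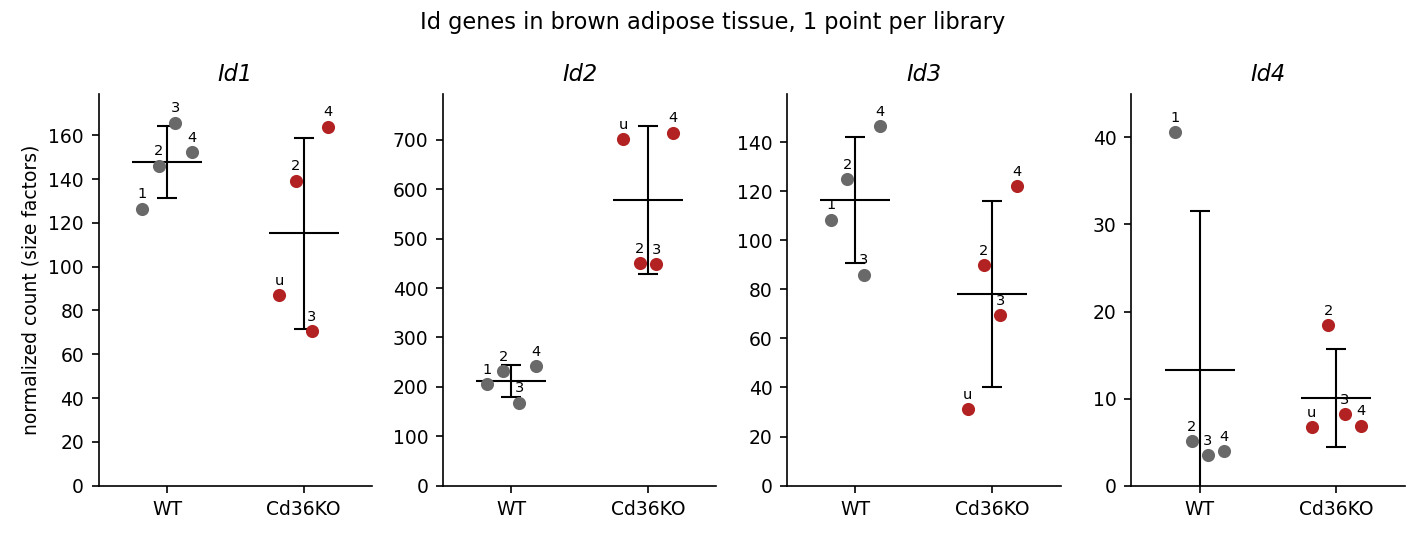
Normalized counts (count divided by the DESeq2 size factor, linear axes starting at 0) of the 4 Id genes, 1 point per library with its replicate number (u, the unnumbered Cd36KO library), and the mean ± SD of each group, where the lower end of the WT bar of Id4 is cut at 0. Only for Id2 do the groups lie apart, with 168 to 242 in WT and 448 to 715 in Cd36KO, while Id1, Id3 and Id4 overlap and WT replicate 1 stands alone at 40.6 for Id4.

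The make-up of the Id transcripts differed between the groups, mainly through Id2. Of all counts assigned to Id genes, Id2 held 42.7%, 45.7%, 39.7% and 44.5% in WT replicates 1 to 4. It held 84.9% in the unnumbered Cd36KO library and 64.5%, 75.1% and 70.9% in replicates 2 to 4. These shares rest on the values that chose Id2 and are given without a test. They come from 360 to 598 Id counts in WT and 583 to 1321 in Cd36KO libraries. The share of Id1 went from 30.6% ± 5.84 to 14.7% ± 4.31 and that of Id3 from 23.6% ± 2.81 to 10.1% ± 4.25 (SD, n = 4), which a higher Id2 count lowers by construction.

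Ratios that leave Id2 out showed no difference beyond the spread. The ratio of Id1 to Id3 counts was 1.33 ± 0.408 in WT libraries and 1.67 ± 0.774 with Cd36KO (SD, n = 4; exact two-sided permutation p = 0.543). The summed normalized count of Id1 and Id3 was 264 ± 27.5 in WT, with a range of 235 to 299, and 193 ± 78.2 in Cd36KO, with a range of 118 to 286 (exact two-sided permutation p = 0.171). Summed over all Id genes, WT libraries held 489 ± 51.2 and Cd36KO libraries 782 ± 177 normalized counts.

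**Figure D2:**
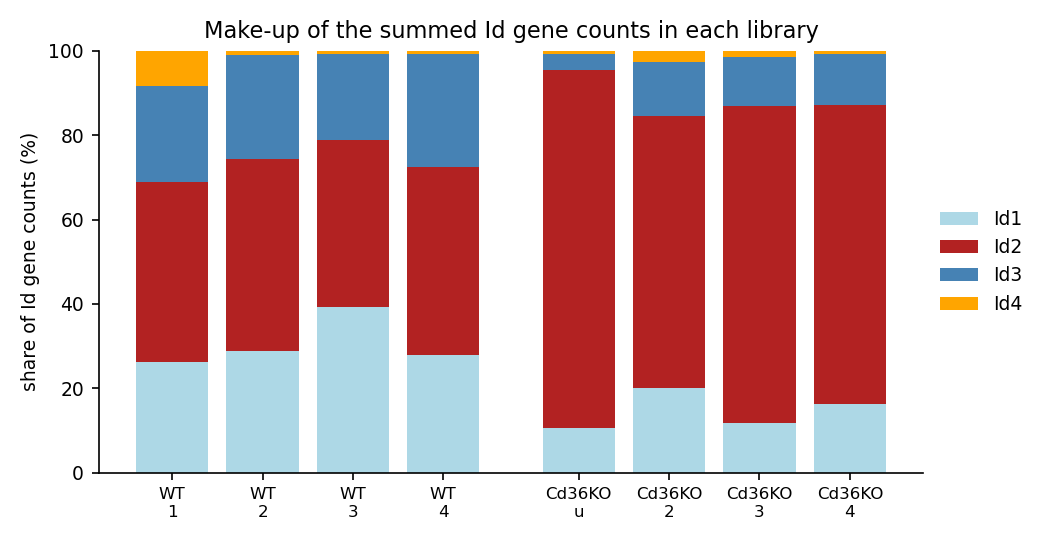
Share of each Id gene in the summed Id gene counts of each library (stacked bars, percent; u, the unnumbered Cd36KO library). Id2 holds 39.7% to 45.7% in WT and 64.5% to 84.9% in Cd36KO, and Id4 is visible mainly in WT replicate 1, at 8.46%.

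Id1 and Id3 correlated with each other over the libraries more closely than either did with Id2. Over the 8 libraries, Pearson's r of log2(normalized count + 1) was 0.70 between Id1 and Id3, -0.42 between Id1 and Id2 and -0.50 between Id2 and Id3. After the mean of each group was removed, the values were 0.59, 0.19 and 0.02. These are descriptions over 8 libraries that share depth and tissue make-up. Among 5528 genes with a mean of at least 50 normalized counts, the 5 most like Id2 were Synj2bp (r = 0.98), Aph1a, Cidea, Tesk1 and Nectin2 (r = 0.97 each). All 5 had higher means in Cd36KO, which alone raises a correlation with Id2. Cidea, which encodes a lipid droplet protein of brown adipocytes, had means of 8451 and 16610 normalized counts. Closest to Id1 stood Mxi1, Rpl3, Dapk1, Fam114a1 and Tob1 (r = 0.96 to 0.89), and closest to Id3 stood Txn1, Rmnd5a, Hnrnph3, Cdc123 and Plbd1 (r = 0.98 to 0.95).

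The E proteins, through which Id proteins act, did not differ between the groups beyond the spread of the libraries. Tcf4 was the most abundant, at 922 ± 168 in WT against 889 ± 85.3 normalized counts in Cd36KO (SD, n = 4), followed by Tcf12 with 208 ± 43.4 and 221 ± 41.4 and by Tcf3 with 30.3 ± 9.37 and 38.9 ± 8.08. Log2 fold changes were -0.05 ± 0.17 for Tcf4, 0.09 ± 0.22 for Tcf12 and 0.37 ± 0.34 for Tcf3 (SE; DESeq2 adjusted p = 0.929, 0.902 and 0.659). The groups overlapped for all 3 genes. The 95% intervals of the fold were 0.766 to 1.21 for Tcf4, 0.791 to 1.43 for Tcf12 and 0.818 to 2.04 for Tcf3.

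**Figure D3:**
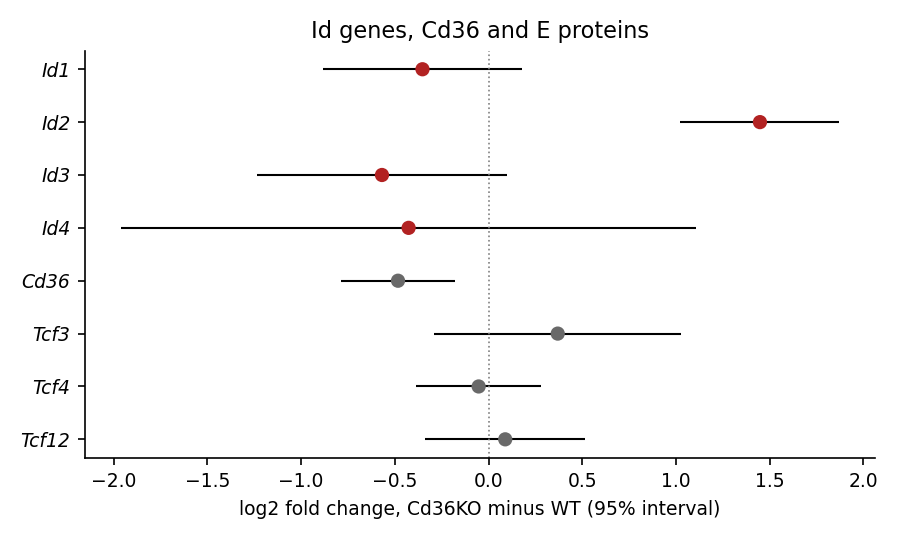
Log2 fold change between Cd36KO and WT (points, from DESeq2) with its 95% interval (lines) for the Id genes in red and for Cd36 and the E proteins in grey. The intervals of Id1, Id3, Id4 and the E proteins include 0 and that of Cd36 lies below 0, while Id2, selected on this value, is shown as a description at 1.45.

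The tissue-specific bHLH factors that pair with E proteins were mostly at the edge of detection. Of 22 listed genes, 17 had any count, 4 were tested and none passed the threshold. Tcf15, an endothelial and mesodermal factor, was the highest of them with 125 normalized counts in WT and 165 in Cd36KO (log2 fold change 0.41 ± 0.29, SE). The muscle factors, picked after their values were seen, were lower still, and Myod1, Myf5, Myog and Myf6 averaged at most 1.62 normalized counts in either group.

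Among the Hes, Hey and Bhlhe repressors, which are bHLH factors that bind DNA themselves, 1 of 5 tested genes was lower in Cd36KO, against 1.53% of all tested genes. Bhlhe41, a repressor of the circadian clock, fell from 78.5 ± 18.1 to 39.0 ± 8.72 normalized counts (SD, n = 4), with a log2 fold change of -1.01 ± 0.28 (SE; DESeq2 adjusted p = 0.0218). Its values were 57.8 to 102 in WT and 32.3 to 51.8 in Cd36KO and did not overlap. edgeR gave an adjusted p of 0.104. With the summed white fat markers as a covariate the log2 fold change of Bhlhe41 was -0.61 (DESeq2 adjusted p = 0.427). That sum was 1280 to 1515 CPM in WT replicates 2 to 4, but 220 in WT replicate 1 and 170 to 284 in Cd36KO. It is thus set apart from genotype chiefly by WT replicate 1, and this fit cannot separate them well. The related Bhlhe40 stood at 77.1 and 76.5, and Hes1, the effector of Notch signalling, at 36.3 and 30.9.

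Of the BMP route that induces Id transcription 1 tested gene passed, a share near the 2.95% of all tested genes. Of 48 genes listed as ligands, receptors, SMADs and inhibitors, 44 had any count and 27 were tested. In DESeq2, 0 of these were higher and 1 lower in Cd36KO, against 1.42% and 1.53% of all tested genes. At an unadjusted p under 0.05 there were 4, against 15.6% of all tested genes. edgeR called 0 genes of all pathway lists, but it called only 14 genes in the whole table. Bmp3, the gene that passed in DESeq2, was filtered out in edgeR. The median log2 fold change of the 27 was -0.12, against -0.01 over all tested genes.

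Of the 4 tested genes listed as ligands, Bmp1, Bmp3, Bmp4 and Bmp6, Bmp3 passed. Bmp1 encodes a protease and not a ligand, despite its name. Bmp3, an atypical BMP that opposes osteogenic BMPs, ranged from 3.61 to 36.6 normalized counts in WT and from 0 to 4.09 in Cd36KO (log2 fold change -3.30 ± 0.84, SE; DESeq2 adjusted p = 0.0103). The Cd36KO values were at the floor and the groups overlapped, so the size of the fold is uncertain, and it was -5.33 on the log2 scale with the skeletal muscle markers as a covariate. Bmp4 stood at 11.5 normalized counts in both groups. Of the receptors, Bmpr2, the type II receptor, went from 149 in WT to 186 normalized counts in Cd36KO, and the type I receptor gene Bmpr1a had 95.5 and 76.2. None of 9 receptors or co-receptors tested passed.

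No BMP SMAD passed. Smad5 had 223 and 230 normalized counts in WT and Cd36KO, Smad4, the common partner, 90.1 and 79.0, and Smad1 44.3 and 39.7 (3 genes tested). Of 11 inhibitors tested none passed, 8 had a negative and 3 a positive log2 fold change, against 49.2% positive among all tested genes. Ski, a corepressor of SMADs, had 136 and 125 normalized counts. Chrdl1, a secreted BMP antagonist picked here after its values were seen, had 34.7 and 8.89 (DESeq2 adjusted p = 0.0526). Of the other BMP target genes only Tob1 and Gata3 were tested. Tob1, which encodes an antiproliferative protein, had 168 and 100 normalized counts (log2 fold change -0.74 ± 0.32, SE; DESeq2 adjusted p = 0.200), and Gata3 had 7.46 and 18.7 (adjusted p = 0.748).

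Of 10 tested genes of the TGF-beta arm, 1 was higher and 1 lower in Cd36KO, against 1.42% and 1.53% of all tested genes. Ltbp2, which encodes a matrix protein related to the latent TGF-beta binding proteins, rose from 106 ± 12.5 to 183 ± 35.5 normalized counts (SD, n = 4; log2 fold change 0.80 ± 0.21, SE; DESeq2 adjusted p = 0.0137). Its values were 91.7 to 120 in WT and 142 to 218 in Cd36KO and did not overlap. With edgeR the adjusted p was 0.104 for Ltbp2.

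**Figure D4:**
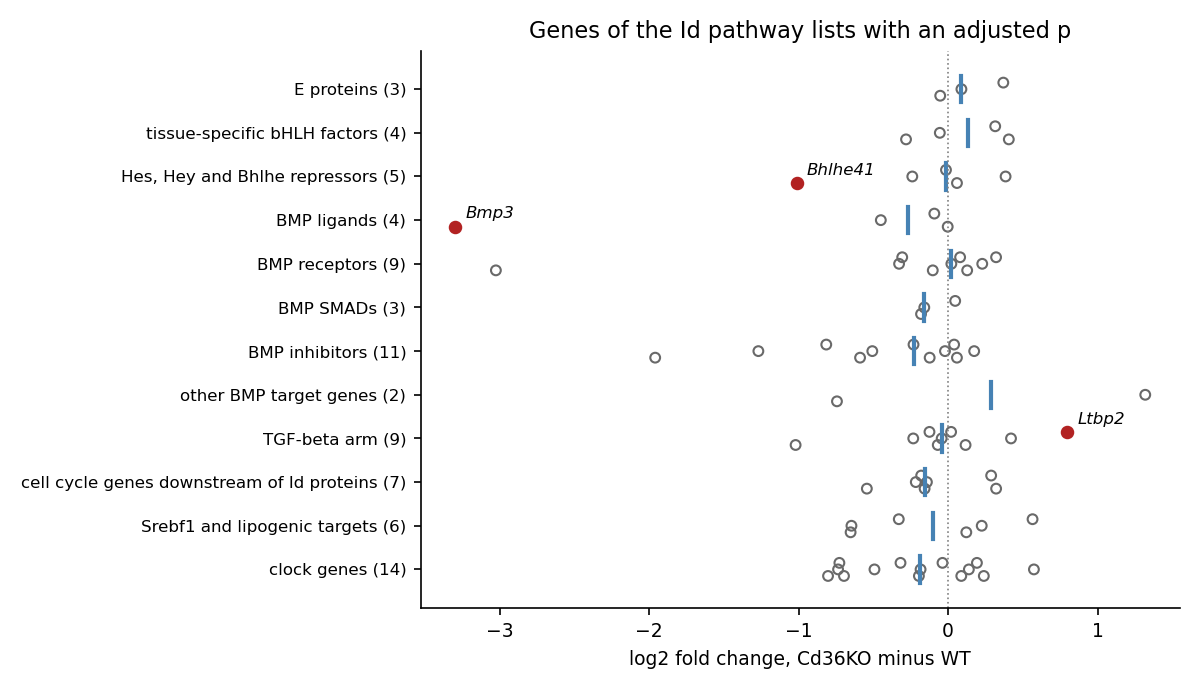
Log2 fold change between Cd36KO and WT of 77 genes with an adjusted p in the 12 pathway lists (number plotted in brackets), with genes past an adjusted p of 0.05 in filled red and named, others as open circles, and the median of each list as a blue bar. The 3 named genes are Bhlhe41, Bmp3 and Ltbp2, and the remaining 74 did not pass.

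No gene passed in the cell cycle, lipogenic and clock lists, which cover processes to which Id proteins have been linked. Bhlhe41, the clock repressor that passed, was counted with the Hes, Hey and Bhlhe repressors. Of 7 cell cycle genes tested, 0 passed in DESeq2 and 1 had an unadjusted p under 0.05, against 2.95% and 15.6% of all tested genes. Cdkn1a, the p21 inhibitor, which E proteins can activate, had 451 normalized counts with WT and 551 with Cd36KO (log2 fold change 0.29 ± 0.28, SE; DESeq2 adjusted p = 0.690), and Cdkn1c, the p57 inhibitor, had 305 and 208 (adjusted p = 0.119). None of 6 lipogenic genes passed, and 3 had a positive and 3 a negative log2 fold change. The most abundant, Scd1, had 44490 and 28420 normalized counts with a log2 fold change of -0.65 ± 0.48 (SE). Fasn, the fatty acid synthase, had 17710 and 26210 with a log2 fold change of 0.56 ± 0.81 (SE). Of 14 clock genes tested none passed and 3 had an unadjusted p under 0.05, against the same shares of 2.95% and 15.6%. The most abundant of them, Tef, had 989 and 1051 normalized counts. The nuclear receptor genes Nr1d1 and Nr1d2 had 310 and 270 and 267 and 305 normalized counts.

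Over all 12 lists, 12 of 78 tested genes had an unadjusted p under 0.05 in DESeq2, against 15.6% of all tested genes, and 4 passed after adjustment, against 2.95%.

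The genes around the Id loci were counted next. Within 500 kb of the 4 starts lay 91 other annotated genes, of which 52 had any count, 32 were tested and 1 passed, a share near the 2.95% of all tested genes. The gene that passed was Tcea3, which encodes a transcription elongation factor, 104 kb from Id3. Its means were 42.5 in WT against 7.11 normalized counts in Cd36KO (log2 fold change -2.59 ± 0.69, SE; DESeq2 adjusted p = 0.0151). Without WT replicate 1, the library with the highest skeletal muscle markers, its log2 fold change was -1.68 (DESeq2 adjusted p = 0.177), and with those markers as a covariate it was -0.91 (adjusted p = 0.692). Of the 12 neighbours of Id2, 2 were tested, and they are named here after their values were seen. Kidins220, 122 kb from Id2, had 193 and 262 normalized counts (log2 fold change 0.44 ± 0.16, SE; DESeq2 adjusted p = 0.126), and Klf11 had 13.0 and 10.8.

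Because the tissue was measured in bulk, fewer cells of a type and less RNA per cell cannot be told apart, and marker sums are given here beside the Id values. The 10 endothelial markers, a cell type in which Id1 and Id3 are known to be expressed, summed to 448 to 783 CPM in WT and 539 to 805 in Cd36KO, and 0 of 10 passed. The 8 stromal progenitor markers summed to 424 to 669 and 392 to 480 CPM, with 0 of 7 tested genes called. The 9 macrophage markers summed to 192 to 287 and 191 to 268 CPM. The 8 lymphocyte markers, which include natural killer genes, summed to only 2.32 to 9.89 and 4.11 to 11.8 CPM, none was tested and Cd79a was at 0.

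Some brown and white adipocyte markers differed between the groups. The 12 brown adipocyte markers summed to 13070 to 16480 CPM in WT and 15370 to 16360 in Cd36KO. Of these 12 genes 3 were called higher, namely Cidea, Ucp1 and Cox8b, against 1.42% of all tested genes, and 0 were called lower. The median log2 fold change of the 12 was 0.50, but not all had a higher mean in Cd36KO. Pparg and Lipe, named after their values were seen, had log2 fold changes of -0.53 and -0.19. Ucp1, the uncoupling protein of brown fat, had 4235 to 7028 normalized counts in WT and 7938 to 12310 in Cd36KO. Of 5 white fat markers tested 4 were called lower, against 1.53% of all tested genes, and their sum over 7 listed genes was 1280 to 1515 CPM in WT replicates 2 to 4, 220 in WT replicate 1 and 170 to 284 in Cd36KO, with Hoxc10 at 0. With the white fat sum as a covariate the log2 fold change of Id2 was 1.51, but chiefly WT replicate 1 sets that sum apart from genotype. The part of brown or white adipocyte content in the Id2 values was not tested.

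None of the skeletal muscle, pericyte, smooth muscle or Schwann cell markers tested passed in DESeq2. The 8 skeletal muscle markers summed to 146 to 14590 CPM in WT and 10.4 to 1442 in Cd36KO. The 6 pericyte and smooth muscle markers summed to 275 to 594 and 240 to 377 CPM, and the 5 Schwann cell markers to 134 to 307 and 222 to 402 CPM. With the skeletal muscle sum as a covariate the log2 fold change was -0.38 for Id1 and -0.62 for Id3 (DESeq2 adjusted p = 0.735 and 0.617). With the white fat sum, set apart from genotype chiefly by WT replicate 1, it was -0.21 and -0.75 (DESeq2 adjusted p = 0.796 and 0.384).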

How the data were processed

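Libraries were prepared from total RNA with a digital mRNA-seq service and sequenced as single-end reads. The study's methods state that the authors used bbduk for trimming, STAR for alignment to mm10, HTSeq-count for gene counts and DESeq2 for differential expression. The submitters' processing notes name Trimmomatic, HISAT2 and DESeq2 on GRCm38, and the study's resource list also holds Trimmomatic and HISAT2. Annotation release, strandedness and use of molecular identifiers are not given in the sources used here. The deposited count table holds raw whole-number counts per Ensembl gene, 2679785 to 4097953 per library. A deposited table of log2 values was checked to equal log2(count divided by a DESeq2 size factor + 1), with a largest difference of 5.68e-14, and served only as an alternative. No pair of libraries was alike within sampling noise (lowest chi-square divided by its degrees of freedom, 6.43). Genes of the mitochondrial genome took 23.4% to 32.1% of counts.

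Counts were fitted with DESeq2 1.42.0 (Wald test, unshrunken fold changes, genotype as the only term, all 8 libraries) in R 4.3.3, with Benjamini-Hochberg adjustment over the 9619 of 17367 genes with any count that default independent and outlier filtering kept, and a threshold of 0.05. For single genes an exact permutation test (two-sided, 70 arrangements) was added (SciPy 1.17.1). Normalized counts are counts divided by the size factor. Floors of 3 counts cover counting error only. Symbols, coordinates (GRCm38, 1-based) and exon lengths came from GENCODE M21, with 30934 of 31053 rows matched, and Hjv was matched through a RefSeq synonym. Levels per kilobase assume that reads cover whole transcripts, which the sources do not state. Promoters came from RefSeq (GRCm38.p6, 3 of 4 Id genes matched).

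The members and all gene lists were chosen with earlier results of these data known. Named genes are the Id genes, Cd36, the E proteins, every called gene of each list and otherwise up to 4 genes with the highest means, every called neighbour, and the 5 genes most like each Id gene with a mean of at least 50. The values of 1 listed gene are not reported here, though counts over lists include it. Alternatives were edgeR 4.0.16, TMM factors, no independent filtering, a minimum of 10 counts in 4 libraries, a replicate block, each library left out, skeletal muscle or white fat marker sums as a covariate, limma 3.58.1 on the deposited log2 values, size factors without mitochondrial genes, and CPM. On simulated counts with 200 genes changed 3-fold, DESeq2 recovered 99.0% of them among 16855 genes, with 5.26% false calls. The simulation gave every gene the same dispersion and changed only genes with a mean of at least 50 counts. It held no differences in tissue make-up, so it checks the code and does not vouch for the calls in these data.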

Additional observations from a re-analysis of the deposited data

Results flagged for a closer look

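A library was singled out where its gap to the nearest of the other 3 of its group, divided by the range of the group, exceeded Dixon's 95% critical value for 4 samples. This was checked in 34 groups of 4 values, of which chance gives about 1.7, and 4 were found. Id4 in WT replicate 1 stood at 40.6 normalized counts, against 3.53 to 5.10 in the other WT libraries. Id4 in Cd36KO replicate 2 stood at 18.4, against 6.69 to 8.18 in the other Cd36KO libraries. The summed brown adipocyte markers were 15370 CPM in the unnumbered Cd36KO library, against 16270 to 16360 in the others. The summed Schwann cell markers were 402 CPM in Cd36KO replicate 3, against 222 to 241 in the others.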

How the results depend on the processing

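Id1 and Id3 kept a negative log2 fold change and an adjusted p above 0.05 in each of 18 alternatives, with ranges of -0.58 to -0.17 and -0.88 to -0.31. Id2 ranged from 1.31 to 1.79 and moved beyond the spread of replicates only with the skeletal muscle covariate (1.793). Id4 turned positive with limma (0.23), in the 6 numbered libraries without a block (1.384) and with it (1.31), with the muscle covariate (0.815) and without WT replicate 1, ranged from -0.885 to 1.233 when each library was left out, and fell to -2.087 with the white fat covariate. Tcf3 turned to -0.007 with the white fat covariate, which chiefly WT replicate 1 sets apart from genotype. Tcf12 turned to -0.025 with the muscle and -0.192 with the white fat covariate, and Tcf4 to 0.008 without and 0.016 with the block in the numbered libraries and to 0.004 with the muscle covariate. Leaving out each library gave -0.158 to 0.049 for Tcf4 and -0.038 to 0.206 for Tcf12.

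Of all genes, 284 were called in DESeq2, 14 with edgeR, 171 with independent filtering off, 8 with limma, 162 with the muscle covariate, 475 with the white fat covariate and 69 to 507 when each library was left out. At an unadjusted p under 0.05 there were 1694 in DESeq2, 1580 with edgeR and 1990 with limma. Of the 78 pathway genes 4 were called, but 2 with TMM factors, 0 with edgeR, 0 with limma, 1 with the white fat covariate and 1 to 9 when each library was left out, the 9 without WT replicate 1. The 1 neighbour called became 0 with TMM factors, edgeR, limma, the muscle covariate, and the numbered libraries with or without the block, and 0 to 1 with each library left out. In 5 settings Bmp3 and Tcea3 had no adjusted p, and in 2 more (edgeR and the minimum of 10 counts in 4 libraries) they were filtered out. Where they had one, the call was lost in 4 of 11 and 7 of 11 alternatives, and Bhlhe41 and Ltbp2 lost it in 11 and 10 of 18. Cd36 passed with TMM factors (-0.49), with the muscle covariate (-0.68) and without WT replicate 4 (-0.57). The causes were not tested.

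Replicate numbers 2, 3 and 4 occur in both groups, but deviations from the group means correlated at -0.07, 0.24 and 0.11, so the numbers were not taken as pairs. With the replicate block 219 genes were called, 99 of them among the 284, against 262 without it in the same 6 libraries. The ratio of Id2 to Id1 per kilobase in WT was 0.692 over all exons and 1.07 over CCDS transcripts, an alternative chosen after seeing the data, as was the fit of the 6 numbered libraries without a block. Id4 had only 3 to 45 counts, and its sign turned when WT replicate 1 was left out.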
